A study of Homo sapiens with 12 samples.

Results

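In HMC3 cells treated with EphB2-Fc, ephrin-B1 siRNA lowered EFNB1, the gene that encodes ephrin-B1, to 36.0% of its level with a negative control siRNA. An edgeR fit of all 12 libraries called 133 of 21601 genes tested (0.616%) at an adjusted p under 0.05. A block for the replicate number raised this to 2146 (9.93%). With only the 6 libraries compared in the fit, the counts were 0 without the block and 1437 with it. The comparison is of 6 of the 12 libraries of the series, picked by their labels: 3 of EphB2 + ephrin-B1 siRNA and 3 of EphB2. HMC3 is an immortalized human line that the study uses as a model of microglia, the resident macrophages of the brain. In the EphB2 + ephrin-B1 siRNA group, cells were transfected with ephrin-B1 siRNA for 48 h and then given EphB2-Fc for 24 h. The EphB2 group had a negative control siRNA and the same EphB2-Fc. A further pair of groups of 3 libraries each received Ctrl-Fc in place of EphB2-Fc, after ephrin-B1 siRNA (called ephrin-B1 siRNA) or after the negative control siRNA (called Ctrl). In all 4 groups the Fc protein was clustered with an antibody to human IgG beforehand and used at 2 ug/mL, so every library came from transfected cells exposed to a clustered Fc protein, and none from untouched cells. EphB2-Fc is the extracellular part of the EphB2 receptor fused to an antibody tail, which, once clustered, binds ephrin-B on the cell surface. The labels and methods describe 1 siRNA product against ephrin-B1, so lowering of EFNB1 and action of the siRNA on other transcripts cannot be told apart. In bulk RNA, fewer cells that express a gene and less of its RNA per cell cannot be told apart either.

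Ephrin-B proteins are ligands that span the membrane. When an EphB receptor on a neighboring cell binds them, the receptor signals forward into its own cell, and the ephrin-B tail signals in reverse into the cell that carries it, through phosphotyrosine adaptors and proteins with PDZ domains. The pathway is best known from axon guidance, synapse formation and the sorting of cells at tissue boundaries, where it acts largely on small GTPases and the cytoskeleton. An siRNA guides the Argonaute complex to transcripts of matching sequence, which are then degraded.

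The 6 libraries held 13230689 to 25785591 estimated counts each. They share the cell line, and same-numbered libraries share an experiment number in the submitted file names (2, 3 and 5 for replicates 1, 2 and 3). The study calls the libraries of a group biological replicates. The first principal component of the 6 libraries (53.2% of the variance) set replicate 1 apart from replicate 2, and the second (17.5%) set EphB2 + ephrin-B1 siRNA apart from EphB2. Replicate 3 lay between replicates 1 and 2 in 96.7% of the 548 genes that differed by 2-fold or more between them in EphB2 + ephrin-B1 siRNA and in 95.8% of 523 such genes in EphB2, so for genes and lists that passed only with a block for the replicate number, the blocked result without replicate 3 is given too. Of 16 microglia and macrophage markers, 11 had enough counts to test, and none was called with either fit. Their summed level was 214 to 247 CPM in EphB2 + ephrin-B1 siRNA, against 219 to 245 CPM in EphB2, where CPM is a normalized read count scaled to library size. CD68, a lysosomal protein of macrophages, averaged 33.7 CPM in EphB2 + ephrin-B1 siRNA, against 36.7 CPM in EphB2. TMEM119, a marker of resident microglia, averaged 0.566 CPM in EphB2 + ephrin-B1 siRNA, against 0.762 CPM in EphB2. P2RY12, a purine receptor of microglia, averaged 0.0911 CPM in EphB2 + ephrin-B1 siRNA, against 0.0374 CPM in EphB2, and AIF1, which encodes IBA1, had 2 counts over all 12 libraries. CX3CR1, TYROBP, FCGR3A and C1QA, also on the microglia list, had 3, 2, 1 and 1 counts and were not tested. Collagen COL1A1, a fibroblast marker, averaged 2643 CPM in EphB2 + ephrin-B1 siRNA, against 2795 CPM in EphB2. The 13 tested of 14 fibroblast and pericyte markers summed to 5012 to 5244 CPM in EphB2 + ephrin-B1 siRNA, against 5235 to 6003 CPM in EphB2, and none of them was called without the block, while 2 fell with it and 0 without replicate 3. The 7 tested of 8 astrocyte markers summed to 139 to 156 CPM in EphB2 + ephrin-B1 siRNA, against 175 to 202 CPM in EphB2, with no overlap. In 4 of the 7 each EphB2 + ephrin-B1 siRNA library was below each EphB2 library (7.65% of all genes tested were). None of the 7 was called without the block, and GJA1 and SLC1A3 fell with it (blocked adjusted p = 0.00113 and 0.0346, and 0.045 and 0.352 without replicate 3). Over all genes tested, 5.4% fell with the block and 0.808% without replicate 3. The part of these markers in the results was not tested.

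EFNB1, on chromosome X at 68829021 to 68842160 of GRCh38, was low in each library with ephrin-B1 siRNA. It had 6.56, 6.03 and 6.38 CPM in EphB2 + ephrin-B1 siRNA, against 15.6, 18.8 and 18.4 CPM in EphB2. The groups did not overlap. The means were 6.32 ± 0.272 CPM in EphB2 + ephrin-B1 siRNA, against 17.6 ± 1.73 CPM in EphB2 (SD, n = 3 each), a log2 fold change (log2FC) of -1.47 with an SE of 0.13 (edgeR adjusted p = 0.00189). Its transcript EFNB1-201 was at 2.22, 1.93 and 2.32 TPM in EphB2 + ephrin-B1 siRNA, against 6.25, 5.56 and 6.46 TPM in EphB2. With Ctrl-Fc the same siRNA left 7.10, 6.6 and 8.70 CPM in ephrin-B1 siRNA cells, against 20.4, 17.4 and 19.3 CPM in Ctrl cells, a log2FC of -1.35 (SE 0.13, adjusted p = 0.00124). In edgeR without the block, the call in EphB2-Fc treated cells was lost when replicate 2 was left out of every group (adjusted p = 0.142). It was also lost without replicate 3 (0.845), while the log2 fold change stayed at -1.38 and -1.43. With the replicate block in edgeR the call was kept without replicate 2 (-1.37, blocked adjusted p = 0.000532) and without replicate 3 (-1.42, 0.00523).

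The other ephrin-B ligands and the EphB receptors were not called. EFNB2 had 57.8, 35.4 and 57.3 CPM in EphB2 + ephrin-B1 siRNA, against 64.8, 45.1 and 31.4 CPM in EphB2, and the groups overlapped. EFNB3 averaged 20.8 ± 0.876 CPM in EphB2 + ephrin-B1 siRNA, against 20.5 ± 1.45 CPM in EphB2 (SD, n = 3). Its log2FC was 0.02 (SE 0.093, adjusted p = 0.986). Among the receptors, the cells' own EPHB2 had 54.9, 51.4 and 55.6 CPM in EphB2 + ephrin-B1 siRNA, against 58.2, 68.5 and 63.4 CPM in EphB2. These groups did not overlap, but the log2 fold change of -0.23 passed in neither fit (SE 0.089, adjusted p = 0.372, blocked adjusted p = 0.0564). EPHB2 did fall with the siRNA under Ctrl-Fc, to 48.7 CPM in ephrin-B1 siRNA against 66.3 CPM in Ctrl (log2 fold change -0.44, adjusted p = 0.0307). EPHB4 averaged 163 CPM in EphB2 + ephrin-B1 siRNA, against 146 CPM in EphB2 (adjusted p = 0.402), and EPHB3 averaged 3.43 CPM in EphB2 + ephrin-B1 siRNA, against 3.23 CPM in EphB2. EPHB1 and EPHB6 were under 1 CPM in all 6 libraries. Of all 8 ephrin ligands tested, EFNB1 was the 1 called with either fit, and none of 14 Eph receptors was called with either.

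**Figure D1:**
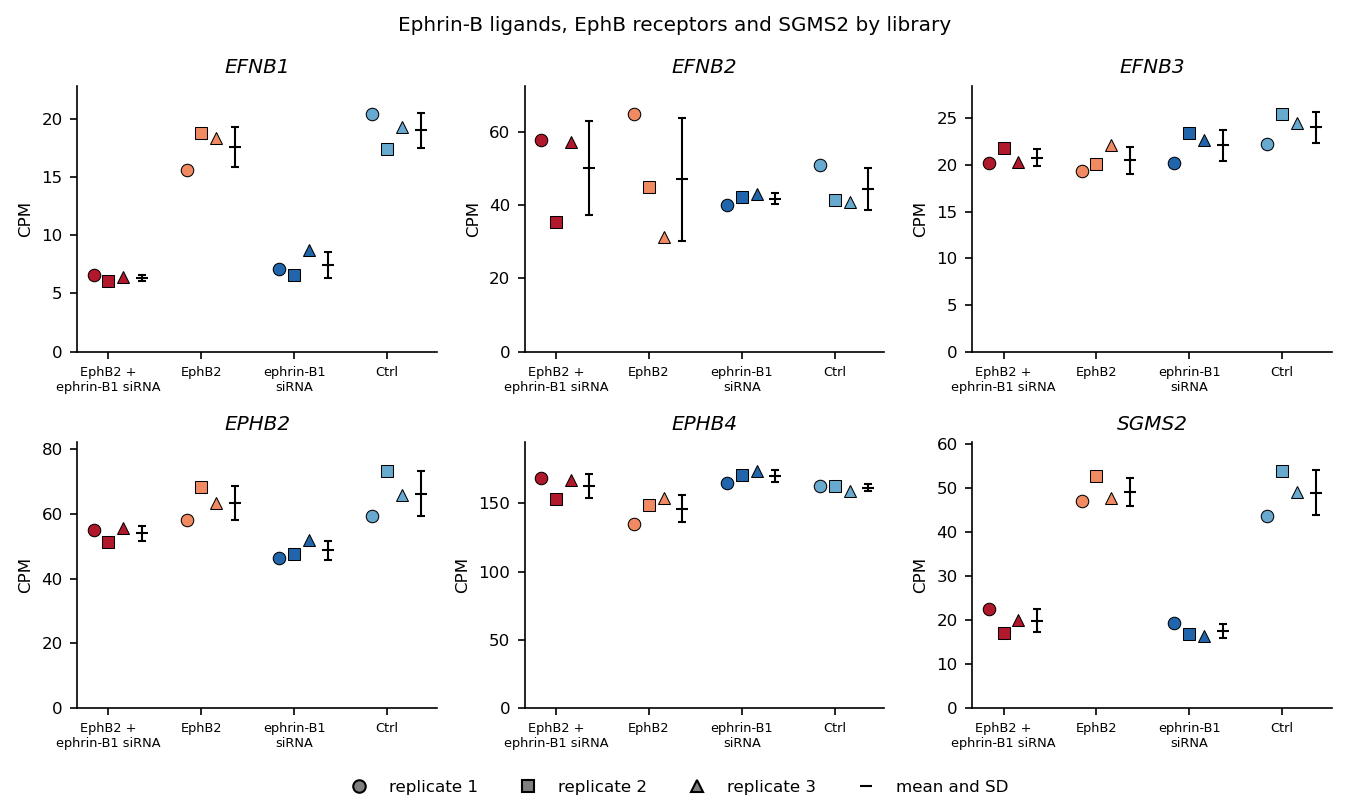
Normalized read count (CPM) of 3 ephrin-B ligands, 2 EphB receptors and SGMS2 in the 12 libraries, with 1 symbol per replicate number and the mean and SD of 3 libraries beside them. For EFNB1 and SGMS2 each EphB2 + ephrin-B1 siRNA library lies below the lowest EphB2 library, while EFNB2 and EFNB3 overlap between these groups.

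None of 23 listed adaptors and processing enzymes of ephrin-B reverse signaling was called without the replicate number as a block in the fit. With the block, the PDZ proteins PTPN13 and PICK1 rose. DVL1, a Dishevelled adaptor, fell to 69.0 CPM in EphB2 + ephrin-B1 siRNA against 93.5 CPM in EphB2 (blocked adjusted p = 0.00399), and ADAM10, a sheddase, fell to 206 CPM in EphB2 + ephrin-B1 siRNA against 233 CPM in EphB2 (blocked adjusted p = 0.0114). Without replicate 3 none of the 23 passed with the block.

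Across all genes, 45 were higher and 88 lower in EphB2 + ephrin-B1 siRNA than in EphB2 at an edgeR adjusted p under 0.05, which is 0.616% of the genes tested (0.208% higher, 0.407% lower). All but 1 of the 133 are protein-coding. Exons of 64 of the 133 overlap those of another gene, a protein-coding one for 38 (LOXL2 and PTPMT1 among them). Whether reads of such overlaps were assigned by strand is not known. The changes were small: the median absolute log2 fold change was 0.52, and 5 genes reached 1. In each of the 133 genes the 3 EphB2 + ephrin-B1 siRNA libraries lay on 1 side of the 3 EphB2 libraries, as they did in 14.5% of all genes tested (6.89% above, 7.65% below), and the 3 same-numbered pairs had 1 sign. With a block for the replicate number, so that experiments are compared within themselves, 2146 genes were called (979 higher and 1167 lower, or 9.93%, 4.53% and 5.4%), all 133 among them. With the block and without replicate 3 the count was 333 (1.61%, with 166 higher, 0.804%, and 167 lower, 0.808%), of which 107 were among the 133. DESeq2 called 660 genes, 5.16% of the 12802 to which it gave an adjusted p, with 308 higher (2.41%) and 352 lower (2.75%). Among these were 131 of the 133, and UPK1A had no adjusted p in DESeq2. The count without the block depended on single libraries. It was 117 without EphB2 replicate 1, 12 without EphB2 replicate 2, 11 without EphB2 replicate 3, and 57, 9 and 2 without EphB2 + ephrin-B1 siRNA replicate 1, 2 and 3. When replicate 1, 2 or 3 was left out of every group it was 83, 0 and 0, with 1777 and 780 genes at an unadjusted p under 0.05 in the fits with 0 calls.

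**Figure D2:**
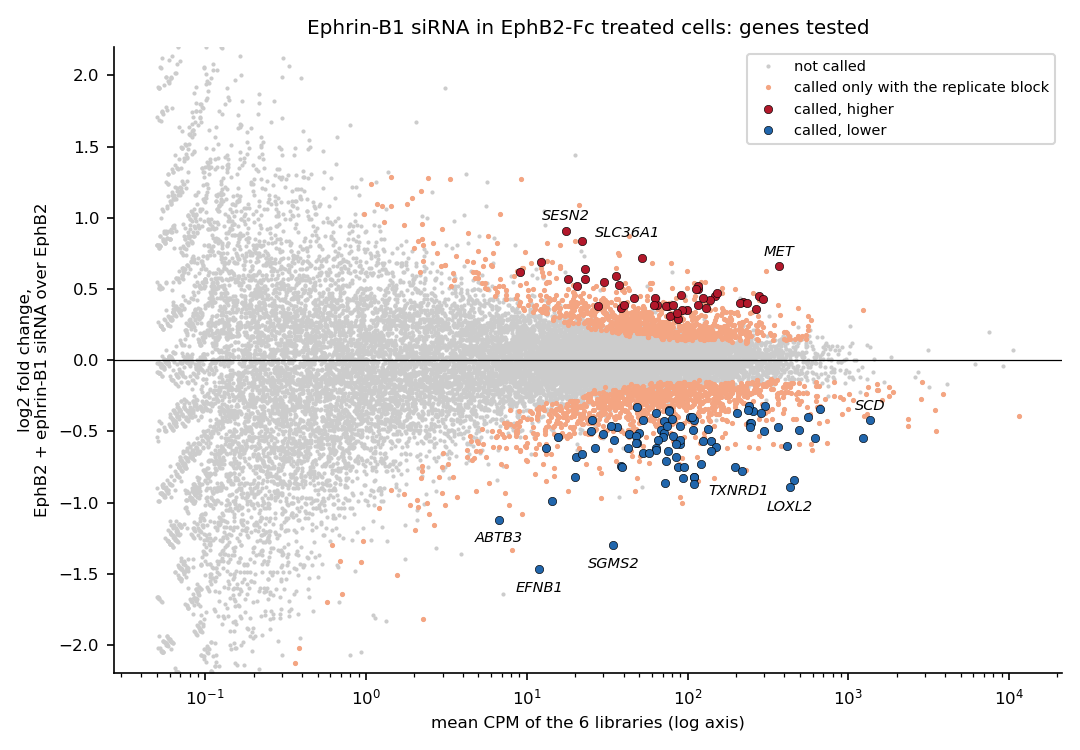
Log2 fold change of EphB2 + ephrin-B1 siRNA over EphB2 against the mean CPM of the 6 libraries (log axis), 1 point per gene with a mean above 0.05 CPM and a log2 fold change within the drawn range. Called genes are in red (45 higher) and blue (88 lower), genes called only with the replicate block in orange, and UPK1A and ENSG00000261459, each under 1 estimated count per library in 1 group, lie outside the range.

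Leaving out UPK1A, which had under 1 estimated count in each library of 1 group, the largest fall after that of EFNB1 was that of SGMS2, sphingomyelin synthase 2, which makes sphingomyelin at the plasma membrane and Golgi. SGMS2 (chromosome 4, 107824563 to 107915047) had 22.5, 17.1 and 19.9 CPM in EphB2 + ephrin-B1 siRNA, against 46.9, 52.8 and 47.8 CPM in EphB2. The groups were far apart, with a mean of 40.4% of the EphB2 level and a log2FC of -1.30 (SE 0.12, adjusted p = 0.00189). The same order held for its transcripts of highest TPM: SGMS2-209 was at 4.33, 2.56 and 4.67 TPM in EphB2 + ephrin-B1 siRNA, against 11.1, 9.30 and 11.2 TPM in EphB2, and SGMS2-202 was at 3.38, 2.53 and 3.05 TPM in EphB2 + ephrin-B1 siRNA, against 7.85, 6.86 and 7.25 TPM in EphB2. Among 31 sphingolipid genes, CERK, ceramide kinase, fell as well (56.8 CPM in EphB2 + ephrin-B1 siRNA, 79.7 CPM in EphB2, adjusted p = 0.0305). With the block 4 of the 31 fell and 2 rose, and without replicate 3 the counts were 2 and 2. SAMD8, a synthase of ceramide phosphoethanolamine, was 1 that rose (124 CPM in EphB2 + ephrin-B1 siRNA, 102 CPM in EphB2, blocked adjusted p = 0.0014, 0.045 without replicate 3). The median log2 fold change of the list was 0.02, beside -0.02 over all genes. Shares over all genes tested were 5.4% lower and 4.53% higher with the block, and 0.808% and 0.804% without replicate 3. ABTB3, a BTB domain protein, was the other called gene with a log2 fold change under -1, at 5.15, 3.74 and 3.73 CPM in EphB2 + ephrin-B1 siRNA, against 8.74, 9.10 and 9.87 CPM in EphB2 (-1.12, SE 0.21, adjusted p = 0.0409).

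INHBA, BMPR2 and TGFBR2 fell. INHBA, the activin A subunit, had 73.5, 53.5 and 69.0 CPM in EphB2 + ephrin-B1 siRNA, against 110, 110 and 110 CPM in EphB2 (log2FC -0.75, SE 0.13, adjusted p = 0.0299). BMPR2, the type II receptor for bone morphogenetic proteins, averaged 77.7 ± 15.0 CPM in EphB2 + ephrin-B1 siRNA, against 143 ± 10.6 CPM in EphB2 (-0.87, adjusted p = 0.049). TGFBR2, the type II TGF-beta receptor, averaged 72.4 ± 4.09 CPM in EphB2 + ephrin-B1 siRNA, against 107 ± 14 CPM in EphB2 (-0.56, adjusted p = 0.0328). Each of these 3 genes was lower in 3 of 3 pairs and passed with the block and without replicate 3. Of the TGF-beta ligands, TGFB1 averaged 88.6 CPM in EphB2 + ephrin-B1 siRNA, against 110 CPM in EphB2, and TGFB2 averaged 195 CPM in EphB2 + ephrin-B1 siRNA, against 267 CPM in EphB2. They passed with the block (0.00177 and 0.00194) but not without replicate 3 (0.0761 and 0.0728). PDGFB, a ligand of PDGF receptors, fell to 9.59 ± 2.43 CPM in EphB2 + ephrin-B1 siRNA against 19.1 ± 2.08 CPM in EphB2 (-0.99, adjusted p = 0.0392). These genes were grouped after their values were seen.

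Among matrix genes, LOXL2 fell. LOXL2, a lysyl oxidase that crosslinks collagen, had 290, 317 and 308 CPM in EphB2 + ephrin-B1 siRNA, against 468, 650 and 571 CPM in EphB2 (log2FC -0.89, SE 0.13, adjusted p = 0.02). It was the 1 gene of 41 matrix genes called. Over all genes tested, 5.4% fell and 4.53% rose with the block, and 0.808% and 0.804% without replicate 3. With the block 14 of the 41 fell and 3 rose, and without replicate 3 the counts were 4 and 1. LOX, THBS2 and LAMC1 were among the 4 that fell, and FBN1, fibrillin 1, was the 1 that rose, with 121 CPM in EphB2 + ephrin-B1 siRNA, against 78.6 CPM in EphB2. THBS2, thrombospondin 2, averaged 116 CPM in EphB2 + ephrin-B1 siRNA, against 171 CPM in EphB2. FN1, fibronectin, shows how the replicates spread: it had 7318, 12772 and 9793 CPM in EphB2 + ephrin-B1 siRNA, against 8165, 17723 and 13348 CPM in EphB2, so that the groups overlapped while each pair was lower (adjusted p = 0.82, blocked adjusted p = 0.00753, and 0.241 without replicate 3). Among metalloproteinases and TIMPs, falls were called for MMP24, a membrane metalloproteinase (-0.56, adjusted p = 0.0256), and TIMP2, a metalloproteinase inhibitor (603, 585 and 592 CPM in EphB2 + ephrin-B1 siRNA, against 729, 768 and 754 CPM in EphB2, adjusted p = 0.0299).

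Among regulators of the cytoskeleton, CDC42 (chromosome 1, 22052627 to 22101360) fell. CDC42 is a small GTPase that drives filopodia and cell polarity, and it had 166, 132 and 143 CPM in EphB2 + ephrin-B1 siRNA, against 259, 250 and 235 CPM in EphB2 (log2FC -0.75, SE 0.089, adjusted p = 0.0081). Its main transcript CDC42-202 was at 74.0, 54.8 and 69.5 TPM in EphB2 + ephrin-B1 siRNA, against 137, 98.0 and 110 TPM in EphB2. CDC42 exons overlap those of an annotated antisense RNA and, on the same strand, those of CDC42-IT1 and the protein-coding ENSG00000289694. VCL, vinculin of focal adhesions, averaged 502 ± 26.4 CPM in EphB2 + ephrin-B1 siRNA, against 736 ± 41.3 CPM in EphB2 (-0.55, adjusted p = 0.0161). CDC42 was the 1 gene called among 39 axon guidance genes and regulators of small GTPases, of which 10 fell and 4 rose with the block, and VCL the 1 among 31 integrin and focal adhesion genes, of which 8 fell and 3 rose. Without replicate 3 the counts were 1 and 0 in each list, which left CDC42 and VCL. Shares over all genes tested were 5.4% lower and 4.53% higher with the block, and 0.808% and 0.804% without replicate 3. TIAM1, an exchange factor for RAC1, averaged 88.9 CPM in EphB2 + ephrin-B1 siRNA, against 106 CPM in EphB2 (blocked adjusted p = 0.00181, 0.0983 without replicate 3). TXNRD1, thioredoxin reductase, averaged 160 ± 14 CPM in EphB2 + ephrin-B1 siRNA, against 274 ± 21 CPM in EphB2 (-0.78, adjusted p = 0.00666). NUCKS1, a nuclear phosphoprotein, averaged 331 CPM in EphB2 + ephrin-B1 siRNA, against 591 CPM in EphB2. ATP5F1E, a subunit of ATP synthase, averaged 67.9 CPM in EphB2 + ephrin-B1 siRNA, against 120 CPM in EphB2. SLC39A10, a zinc importer (-0.86), ATP2B4, a calcium pump (-0.82), and the kinase MAP3K2 (-0.75) fell by similar amounts.

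A pair of called genes had under 1 estimated count in each library of 1 group. UPK1A (chromosome 19, 35666517 to 35678481), which encodes the membrane protein uroplakin 1A, had 0.368, 0 and 0 estimated counts in EphB2 + ephrin-B1 siRNA, against 56, 21 and 34.6 estimated counts (3.20, 1.33 and 1.71 CPM) in EphB2. It was at least 37.4-fold lower in EphB2 + ephrin-B1 siRNA, taking 3 counts over the group as the floor (adjusted p = 0.0155). It was present with the siRNA alone, at 3.84, 1.40 and 2.31 CPM in ephrin-B1 siRNA and 1.35, 1.39 and 1.20 CPM in Ctrl. UPK1A was the 1 called gene with opposite signs under EphB2-Fc and Ctrl-Fc, and the 1 with a call for the difference between them once the block was in the fit (adjusted p = 0.212 without the block, blocked adjusted p = 0.00358). ENSG00000261459 (chromosome 16, 30525923 to 30534852) had 60.6, 34.3 and 13 estimated counts (2.40, 1.99 and 1.01 CPM) in EphB2 + ephrin-B1 siRNA, against 0.000609, 0 and 0 estimated counts in EphB2, at least 35.8-fold higher by the same floor (adjusted p = 0.0452). Its exons overlap those of ZNF747 and ZNF768, and those of UPK1A overlap an antisense RNA, so the estimated counts of both are uncertain.

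Several genes that rose take part in amino acid supply and in the stress response of the transcription factor ATF4, which is made when amino acids are short or the endoplasmic reticulum is loaded. SESN2 (chromosome 1, 28259518 to 28282491), sestrin 2, a leucine sensor that restrains mTORC1, rose to 25.4, 19.7 and 23.3 CPM in EphB2 + ephrin-B1 siRNA, against 13.3, 10.2 and 12.9 CPM in EphB2 (log2FC 0.91, SE 0.14, adjusted p = 0.0227). SLC36A1, a lysosomal exporter of amino acids, had 27.2, 29.3 and 28.6 CPM in EphB2 + ephrin-B1 siRNA, against 16.1, 14.2 and 17.2 CPM in EphB2 (0.84, SE 0.097, adjusted p = 0.00747). DDIT3, which encodes the stress factor CHOP, had 21.7, 21.9 and 20.6 CPM in EphB2 + ephrin-B1 siRNA, against 13.6, 16.1 and 13.7 CPM in EphB2 (0.57, adjusted p = 0.0349). In all 3 genes each EphB2 + ephrin-B1 siRNA library lay above each EphB2 library, as in 6.89% of all genes tested. Exons of DDIT3 overlap those of the protein-coding ENSG00000285133 on the same strand and of MARS1 and MBD6 on the other. NARS1, the asparaginyl-tRNA synthetase, rose by less (0.29, adjusted p = 0.0433).

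Of 30 listed ER stress and ATF4 genes, SESN2 and DDIT3 were called, 17 rose and none fell with the block, and 8 rose without replicate 3. Of all genes tested, 4.53% rose with the block and 0.804% without replicate 3. The log2 fold changes of all 30 were positive, from 0.01 for XBP1 to 1.27 for CHAC1, as were those of 10171 of all 21601 genes. The median was 0.29, beside -0.02 over all genes. CHAC1, which degrades glutathione, had 17.2, 7.66 and 14.2 CPM in EphB2 + ephrin-B1 siRNA, against 6.68, 3.92 and 5.62 CPM in EphB2 (adjusted p = 0.173, blocked adjusted p = 8.57e-05, 0.0069 without replicate 3). SLC7A11 and SLC3A2, the chains of the cystine transporter, averaged 28.9 and 153 CPM in EphB2 + ephrin-B1 siRNA, against 13.6 and 105 CPM in EphB2 (blocked adjusted p = 2.79e-05 and 1.62e-05, and 0.00523 and 0.00557 without replicate 3). ASNS, asparagine synthetase, had 73.4, 35.9 and 59.1 CPM in EphB2 + ephrin-B1 siRNA, against 32.7, 31.0 and 28.4 CPM in EphB2. It passed with the block (0.00532) but not without replicate 3 (0.125). ATF4 itself averaged higher in each pair, with 252, 270 and 276 CPM in EphB2 + ephrin-B1 siRNA, against 195, 242 and 230 CPM in EphB2 (blocked adjusted p = 0.00637, 0.105 without replicate 3). SLC7A5, a leucine transporter, was spread from 165 to 556 CPM in EphB2 + ephrin-B1 siRNA and from 207 to 516 CPM in EphB2 and passed in neither fit.

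Promoters of the ATF4 list were searched for TGATGNAA, a site that ATF4 binds with C/EBP proteins, on either strand of the 250 bases before and 50 after each start site in the RefSeq table for GRCh38.p14. Of the 30 genes 28 matched the table by symbol, and 5 of these held the site in at least 1 promoter (17.9%), as did 4.46% of 27305 genes in all. The 5 were CHAC1, ASNS, SLC3A2, HERPUD1 and ATF3, and the first 4 of these rose with the block. SESN2 and DDIT3 held none. The 250 bases before the start are shown for 3 genes that rose with the block and have the site there, with the site, or its reverse complement, in capitals. They lie at chr15:40953221-40953470 (plus strand), chr7:97872409-97872658 (minus strand) and chr16:56931892-56932141 (plus strand), and the site begins 209, 68 and 176 bases before the start. A match of letters is a description of the sequence and was not tested for binding.
CHAC1: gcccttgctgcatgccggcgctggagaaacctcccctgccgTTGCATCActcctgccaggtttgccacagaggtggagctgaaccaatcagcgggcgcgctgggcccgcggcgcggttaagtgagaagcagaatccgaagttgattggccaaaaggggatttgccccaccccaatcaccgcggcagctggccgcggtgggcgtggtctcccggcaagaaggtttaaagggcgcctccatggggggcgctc
ASNS: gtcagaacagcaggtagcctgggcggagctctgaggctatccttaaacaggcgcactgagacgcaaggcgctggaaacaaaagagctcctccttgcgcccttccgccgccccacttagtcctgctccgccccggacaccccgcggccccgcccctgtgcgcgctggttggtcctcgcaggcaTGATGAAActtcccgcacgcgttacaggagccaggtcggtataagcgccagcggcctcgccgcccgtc
HERPUD1: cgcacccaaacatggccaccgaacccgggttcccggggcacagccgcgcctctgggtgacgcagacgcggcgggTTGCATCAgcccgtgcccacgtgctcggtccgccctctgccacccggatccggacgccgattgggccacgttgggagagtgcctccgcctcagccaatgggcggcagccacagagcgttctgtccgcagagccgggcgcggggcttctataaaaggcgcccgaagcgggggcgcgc

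Several genes that restrain the cell cycle or protect from cell death were higher, a grouping made after their values were seen. CDKN1A, the cell cycle inhibitor p21, had 385, 361 and 370 CPM in EphB2 + ephrin-B1 siRNA, against 283, 207 and 232 CPM in EphB2 (log2FC 0.63, adjusted p = 0.0524, blocked adjusted p = 0.000338, 0.0272 without replicate 3). BTG2, an antiproliferative factor, averaged 46.9 CPM in EphB2 + ephrin-B1 siRNA, against 28 CPM in EphB2 (blocked adjusted p = 0.000104, 0.0105 without replicate 3). SESN1, a sestrin, had 13.3, 10.4 and 13.3 CPM in EphB2 + ephrin-B1 siRNA, against 8.28, 7.08 and 6.45 CPM in EphB2 (blocked adjusted p = 0.000687, 0.0411 without replicate 3). MCL1, a survival protein of the BCL2 family, rose to 338 ± 27.3 CPM in EphB2 + ephrin-B1 siRNA against 252 ± 1.49 CPM in EphB2 (0.43, adjusted p = 0.0484).

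Genes of mitosis that passed rose, by small amounts. CDCA8, a subunit of the chromosomal passenger complex, had 95.2, 93.0 and 97.4 CPM in EphB2 + ephrin-B1 siRNA, against 81.0, 72.4 and 74.3 CPM in EphB2 (log2FC 0.33, adjusted p = 0.0442). It was the 1 of 32 mitosis genes called, while 13 rose and none fell with the block (CCNB1, KIF2C, BUB1 and PLK1 among them) and 1, CCNB1, rose without replicate 3. The median was 0.10. Over all genes tested, 4.53% rose and 5.4% fell with the block, and 0.804% and 0.808% without replicate 3. ESPL1, the separase, named after its value was seen, also rose (0.39, adjusted p = 0.0452). In G1/S, the cyclin CCND3 rose to 110, 106 and 100 CPM in EphB2 + ephrin-B1 siRNA against 78.1, 71.7 and 80.6 CPM in EphB2 (0.46, adjusted p = 0.0349), whereas CCND1 averaged 652 CPM in EphB2 + ephrin-B1 siRNA, against 789 CPM in EphB2 (adjusted p = 0.763, blocked adjusted p = 0.00106, but 0.134 without replicate 3). Of 31 G1/S genes 3 rose and 4 fell with the block, and without replicate 3 the counts were 1 and 0.

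Of the listed genes of lipid synthesis, 3 fell and none rose. INSIG1, which holds the sterol sensor SCAP in the endoplasmic reticulum and is itself switched on by SREBP, had 344, 317 and 329 CPM in EphB2 + ephrin-B1 siRNA, against 454, 552 and 499 CPM in EphB2 (log2FC -0.60, SE 0.085, adjusted p = 0.0177). SCD, stearoyl-CoA desaturase, had 1199, 1153 and 1146 CPM in EphB2 + ephrin-B1 siRNA, against 1475, 1670 and 1537 CPM in EphB2 (-0.42, adjusted p = 0.0373). STARD4, a sterol carrier, averaged 67.7 ± 8.45 CPM in EphB2 + ephrin-B1 siRNA, against 102 ± 5.82 CPM in EphB2 (-0.59, adjusted p = 0.0497). These were the 3 of 31 cholesterol and fatty acid genes called. With the block 17 fell and none rose, and 29 of the 31 had a negative log2 fold change, with a median of -0.18. Of all genes tested, 5.4% fell with the block, and 10171 of 21601 had a positive log2 fold change. Without replicate 3, INSIG1 and STARD4 passed. FASN, fatty acid synthase, had 990, 1170 and 1106 CPM in EphB2 + ephrin-B1 siRNA, against 1095, 1729 and 1469 CPM in EphB2 (blocked adjusted p = 0.00927, 0.195 without replicate 3). Off the list, MBTPS1, the protease that cleaves SREBP, rose, with 173, 167 and 175 CPM in EphB2 + ephrin-B1 siRNA, against 135, 117 and 126 CPM in EphB2 (0.45, adjusted p = 0.0373).

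Among hypoxia and glycolysis genes, NDRG1 and ENO2 fell. NDRG1, a gene induced by low oxygen, had 106, 97.4 and 98.4 CPM in EphB2 + ephrin-B1 siRNA, against 152, 148 and 150 CPM in EphB2 (log2FC -0.57, SE 0.066, adjusted p = 0.00747). ENO2, an enolase, had 221, 205 and 220 CPM in EphB2 + ephrin-B1 siRNA, against 273, 265 and 267 CPM in EphB2 (-0.32, adjusted p = 0.0392). Of 31 genes 2 were called, 16 fell and 2 rose with the block, and 4 fell without replicate 3. Shares over all genes tested were 5.4% lower and 4.53% higher with the block, and 0.808% lower without replicate 3. TPI1, GAPDH, PGK1 and HK2, enzymes of glycolysis, each averaged lower with no overlap between the groups, with adjusted p of 0.0626 to 0.241. In 13 of the 31 genes each EphB2 + ephrin-B1 siRNA library was below each EphB2 library, as in 7.65% of all genes tested. SLC2A3, a glucose transporter, rose with the block (blocked adjusted p = 0.00596), as did KDM3A (0.00918), but neither passed without replicate 3 (0.116 and 0.0831). Off the list, BHLHE40 (-0.53, adjusted p = 0.0227) and ERO1A (-0.47, adjusted p = 0.0349) fell.

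**Figure D3:**
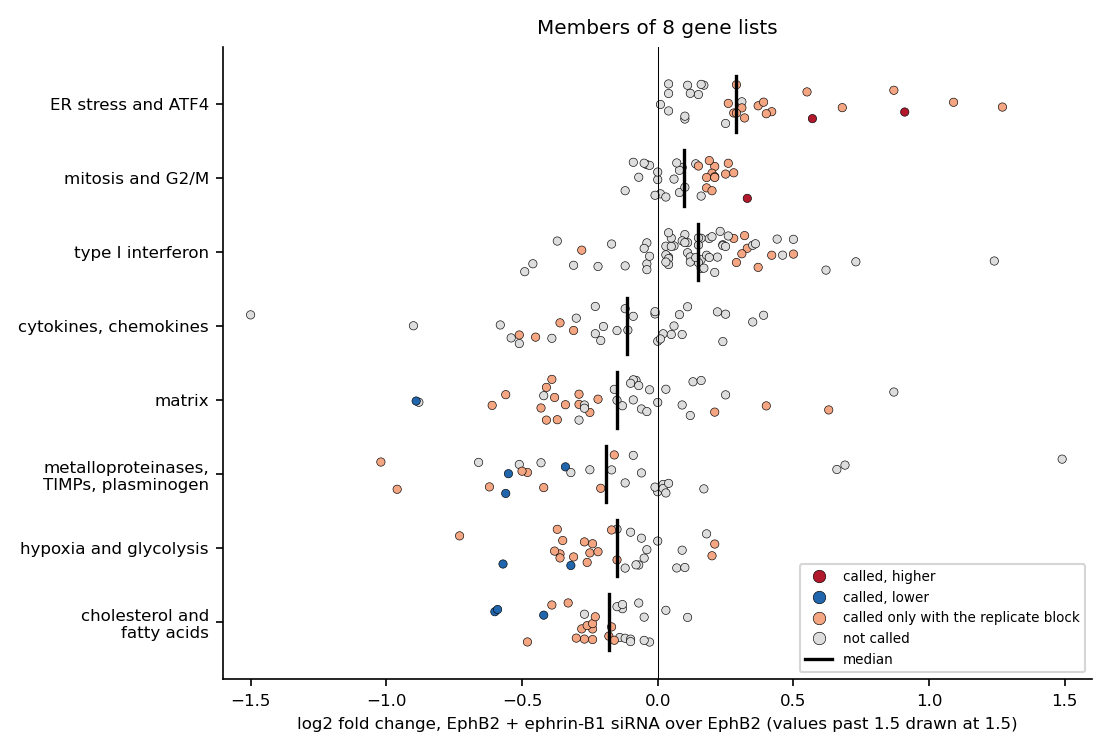
Log2 fold change of EphB2 + ephrin-B1 siRNA over EphB2 for the tested members of 8 gene lists, 1 point per gene, with the list's median as a black bar. The 30 ER stress and ATF4 genes lie above 0 and 29 of 31 cholesterol and fatty acid genes below it, and orange points pass only with the replicate block.

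Other receptors and signaling genes that rose included MET, the receptor for hepatocyte growth factor. MET had 426, 494 and 437 CPM in EphB2 + ephrin-B1 siRNA, against 305, 272 and 283 CPM in EphB2 (log2FC 0.66, SE 0.087, adjusted p = 0.0155). PPP2R1B, a scaffold subunit of the phosphatase PP2A, had 61.8, 73.0 and 60.0 CPM in EphB2 + ephrin-B1 siRNA, against 39.2, 41.6 and 37.1 CPM in EphB2 (0.72, adjusted p = 0.0155). PLXNB3, a plexin that binds semaphorins, had 35.0, 39.7 and 32.8 CPM in EphB2 + ephrin-B1 siRNA, against 25.8, 22.5 and 24.9 CPM in EphB2 (0.55, adjusted p = 0.0349). The rises of PTPMT1 (0.69), NRBF2 (0.64), SCNN1D (0.62), GOPC (0.59), ERCC5 (0.57), PKD2 (0.53) and CDK19 (0.52) were of like size, with adjusted p of 0.0177 to 0.0492. SOCS3, a feedback inhibitor of cytokine receptors, and FOSL2, an AP-1 subunit, fell (-0.37 and -0.36, adjusted p = 0.0452 and 0.0439).

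**Figure D4:**
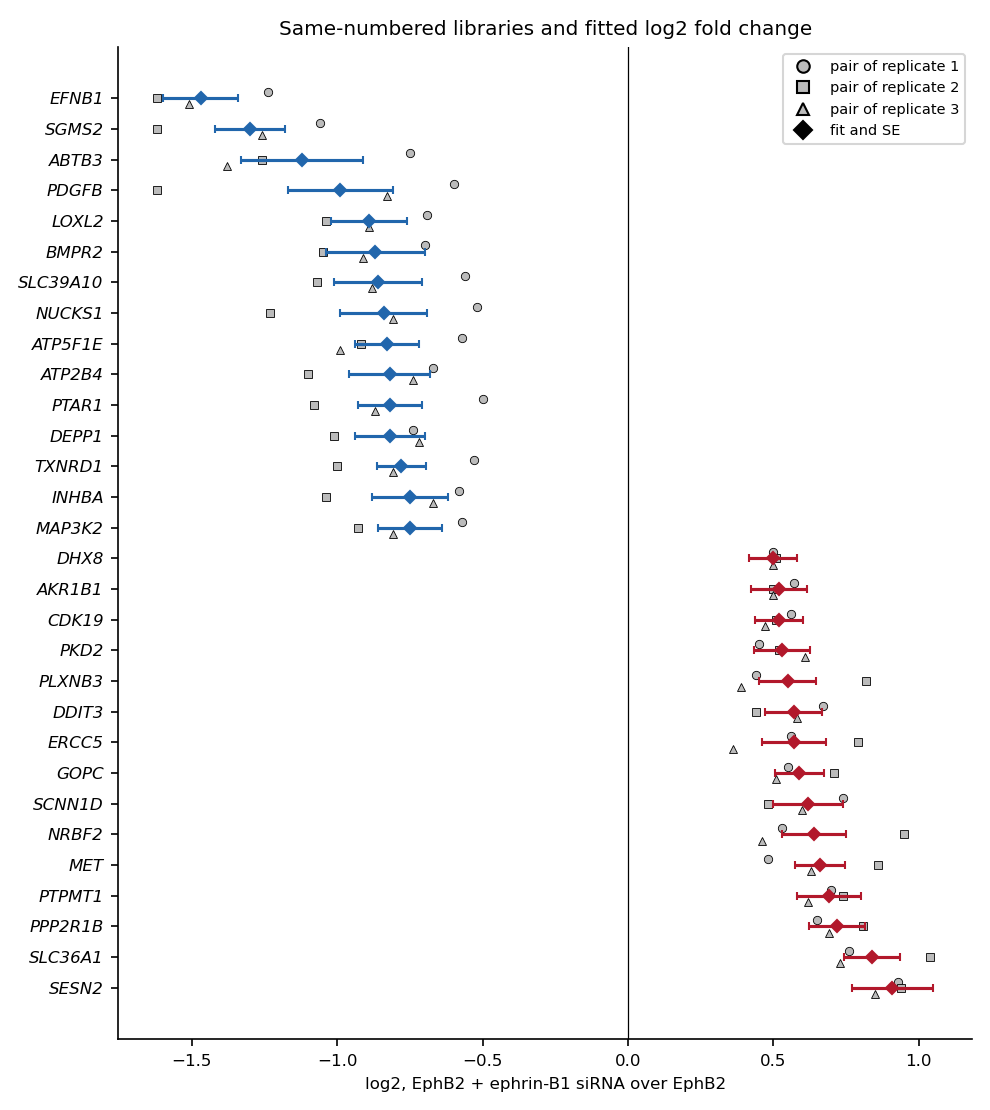
Log2 ratio of EphB2 + ephrin-B1 siRNA over EphB2 in each same-numbered pair (grey) and the fitted log2 fold change with its SE (colored) for the 15 largest falls and 15 largest rises among called genes, leaving out UPK1A and ENSG00000261459. All 3 pairs of each gene share a sign.

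Of 10 genes that the study's text names for these libraries, 8 were tested, and of 11 secreted proteins it names, 9. None of these was called between EphB2 + ephrin-B1 siRNA and EphB2 without the block. With the block 1 of the 8 and 1 of the 9 fell and none rose, beside 5.4% of all genes tested that fell. Neither list held a call with the block without replicate 3. CXCL10 and TNF, on both lists, had 7 and 0 counts over the 12 libraries and were not tested. The study's lower CXCL10, GM-CSF, MMP-9 and CCL11 after knockdown were secreted proteins, which RNA values do not measure. The study also reports blunted activation of IL1B, CXCL10 and RELA with the knockdown. That statement rests on a network analysis of its RNA sequencing, with each EphB2-Fc group set against Ctrl. The network was not tested here. C3, the central complement component, had 25.8, 38 and 34.8 CPM in EphB2 + ephrin-B1 siRNA, against 27.8, 46.0 and 39.5 CPM in EphB2, beside 6.2 CPM in ephrin-B1 siRNA and 8.69 CPM in Ctrl on average. Its log2 fold change of -0.20 (SE 0.19) passed in neither fit (adjusted p = 0.841, blocked adjusted p = 0.378). IL32, a cytokine that the study's text does not name, had 17.6, 8.60 and 16 CPM in EphB2 + ephrin-B1 siRNA, against 17.4, 9.04 and 14.5 CPM in EphB2, beside means of 2.51 CPM in ephrin-B1 siRNA and 2.61 CPM in Ctrl (log2FC 0.05, SE 0.34, adjusted p = 0.995). IL6 averaged 9.03 ± 1.57 CPM in EphB2 + ephrin-B1 siRNA, against 10.6 ± 1.39 CPM in EphB2 (-0.23, SE 0.18, adjusted p = 0.769). RIGI, a sensor of viral RNA, and IFITM3, which blocks virus entry, averaged 135 and 410 CPM in EphB2 + ephrin-B1 siRNA, against 124 and 418 CPM in EphB2 (log2 fold changes of 0.12, SE 0.27, and -0.03, SE 0.13). CXCL1, a neutrophil chemokine, was spread from 8.37 to 19.2 CPM in EphB2 + ephrin-B1 siRNA and from 6 to 26.2 CPM in EphB2 (adjusted p = 0.952).

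No gene of the interferon (65 tested), NF-kB (34) or cytokine (34) lists was called. With the block 8 interferon genes rose and 1, OASL, fell, and none passed without replicate 3. Over all genes tested, 4.53% rose and 5.4% fell with the block, and 0.804% and 0.808% without replicate 3. STAT2, a transcription factor of the interferon response, had 298, 308 and 305 CPM in EphB2 + ephrin-B1 siRNA, against 240, 251 and 242 CPM in EphB2 (adjusted p = 0.0916, blocked adjusted p = 0.00416, 0.0905 without replicate 3). The median log2 fold change of the interferon list was 0.15, and 52 of 65 were positive, beside 10171 of all 21601 genes. Of NF-kB genes, 4 rose with the block (NFKB2, NFKBIE, NFKBIA and PTX3) and 3 fell (CD83, TNFAIP2 and TNIP1), and NFKB2 alone passed without replicate 3, with 129 CPM in EphB2 + ephrin-B1 siRNA, against 105 CPM in EphB2 (0.0462). Of cytokines, TGFB1, TGFB2, LIF and IL1B fell with the block and none rose, with a median of -0.12. None of these 4 passed without replicate 3.

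The same siRNA was compared in cells that had Ctrl-Fc, in the other 6 libraries. They come from the same 3 experiments and entered the fit that set the spread for the 133 calls. With only EphB2 + ephrin-B1 siRNA and EphB2 in the edgeR fit, 0 genes were called without the block (1662 at an unadjusted p under 0.05) and 1437 with it. Under Ctrl-Fc 391 genes were called (1.81%), 142 higher (0.657%) and 249 lower (1.15%), and 2931 (13.6%) with the block. Of the 133 genes called in EphB2-Fc treated cells, 132 had the same sign there, 115 (86.5%) were called with it without the block and 129 (97%) with it. The median log2 fold change of the 88 that fell was -0.56 under EphB2-Fc and -0.59 under Ctrl-Fc, and that of the 45 that rose was 0.44 under either. SGMS2 was at 17.4 ± 1.53 CPM in ephrin-B1 siRNA and 48.9 ± 5.12 CPM in Ctrl (log2 fold change -1.49), CDC42 at 135 CPM in ephrin-B1 siRNA and 250 CPM in Ctrl (-0.89), and MET at 486 CPM in ephrin-B1 siRNA and 283 CPM in Ctrl (0.78).

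The difference between the siRNA effect under EphB2-Fc and under Ctrl-Fc was tested as an interaction, and edgeR called 0 genes, with 498 at an unadjusted p under 0.05. DESeq2 called 2, edgeR with the block 1 (0.00463%), and DESeq2 with the block 25. Of the 133 genes, 7 had an unadjusted interaction p under 0.05. AKR1B1, aldose reductase, was 1 of them, with 142, 136 and 133 CPM in EphB2 + ephrin-B1 siRNA, against 96.1, 96.2 and 93.9 CPM in EphB2, but 91.0 CPM in ephrin-B1 siRNA and 87.8 CPM in Ctrl (log2 fold changes of 0.52 and 0.05, interaction adjusted p = 1, blocked adjusted p = 0.306). EphB2 was also compared with Ctrl, both with the negative control siRNA, which shares the EphB2 libraries. The median log2 fold change was -0.00 for the 45 that rose and -0.02 for the 88 that fell. Without the block none of them was called in it (0.037% of all genes were). With the block 1 of the 45 rose with EphB2-Fc and 4 fell, and 4 of the 88 rose and 6 fell. Over all 21601 genes 461 rose and 692 fell.

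**Figure D5:**
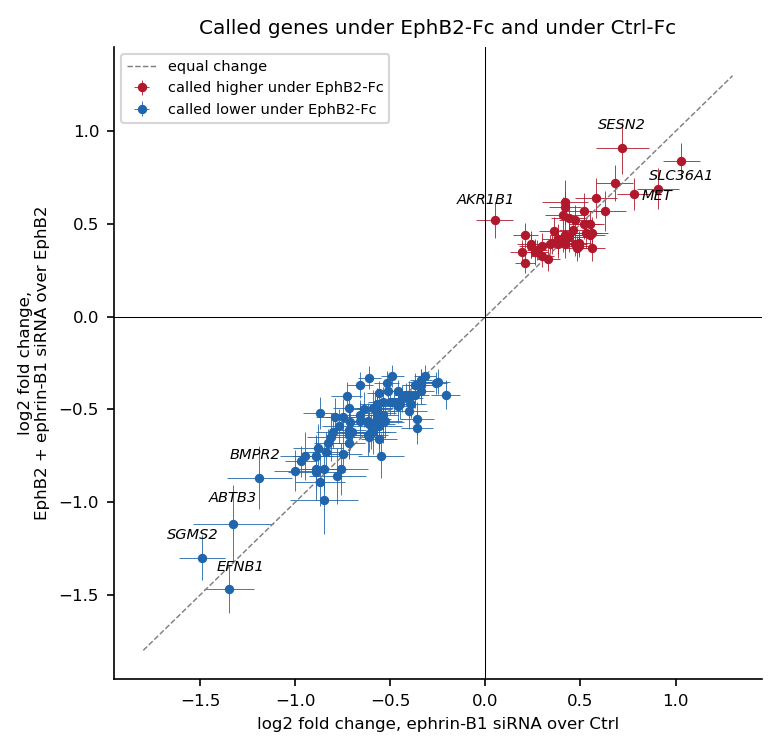
Log2 fold change with ephrin-B1 siRNA under EphB2-Fc (vertical axis) against that under Ctrl-Fc (horizontal axis) for called genes within the drawn range, with the SE of each as bars and equal change as a dashed line. The points of 131 genes lie in the quadrants where the signs are alike, and AKR1B1 lies at 0.05 on the horizontal and 0.52 on the vertical axis.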

How the data were processed

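Ribosomal RNA-depleted libraries of HMC3 cells were sequenced in paired reads of 100 bases. The authors quantified them with kallisto (version not given in the sources used here) against Ensembl release 109 transcripts of GRCh38, and the deposited tables hold estimated counts and TPM (length-scaled transcript abundance) for 188753 transcripts. Whether the counting used strand is not given in the sources used here. Transcripts were paired with genes of GENCODE release 44 by identifier: 167067 were paired with 36315 genes and 21686 were not used. Each gene was given the sum of its transcripts' estimated counts, made whole by rounding, and 21601 genes that reached 10 counts across all 12 libraries entered the test in edgeR 4.0.16 (R 4.3.3) by the quasi-likelihood test with TMM normalization, all 4 groups in 1 fit and Benjamini-Hochberg adjustment. A gene was called at an adjusted p under 0.05. CPM are TMM-normalized. The common biological coefficient of variation came to 0.182, and to 0.0649 once replicate number was fitted as a block.

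Same-numbered libraries share an experiment number in the submitted file names. Deviations from the group means of EphB2 + ephrin-B1 siRNA and EphB2 correlated at 0.646, 0.648 and 0.181 in replicates 1, 2 and 3, so blocked values are given beside a result where they change its call. On simulated counts for the comparison of EphB2 + ephrin-B1 siRNA with EphB2, the fit without the block recovered 12.9% of 62 genes changed by 0.5 on the log2 scale, 67.1% of 70 changed by 1 and 95.6% of 68 changed by 2, with 6 false calls among 21152 genes, and the fit with the block 68.4% of 76, 96.7% of 60 and 98.4% of 64, with 17 among 21140. The changed genes were drawn only from those above a minimum mean count. Counts were drawn for each library on its own from the model of the fit tested. The simulation without the block thus held no effect shared by same-numbered libraries, and these rates are not those of all genes tested. An exact permutation test of 3 against 3 libraries cannot go below p = 0.10, and none is given.

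Named genes are the ephrin-B and EphB family, the 15 largest rises and falls among called genes of 1 sign in 3 pairs, the 10 lowest blocked p per direction among genes that passed only with the block, up to 4 members of each list by p, and genes that the study names. The members and lists were chosen with earlier results of these data known, and genes outside the rule were chosen after their values were seen. Alternatives were DESeq2 1.42.0, its size factors, other filters, an offset for transcript length, limma 3.58.1 on log2(TPM + 1), the most abundant transcript, the compared groups alone and leaving out libraries. Results of some genes are not reported here.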

Additional observations from a re-analysis of the deposited data

Results flagged for a closer look

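UPK1A differed between the Fc treatments in its response to ephrin-B1 siRNA. It had under 1 estimated count, made 0 by rounding, in each EphB2 + ephrin-B1 siRNA library, against 3.20, 1.33 and 1.71 CPM in EphB2, and 3.84, 1.40 and 2.31 CPM in ephrin-B1 siRNA, against 1.35, 1.39 and 1.20 CPM in Ctrl. The interaction passed in edgeR with the replicate block (adjusted p = 0.00358) and not without it (adjusted p = 0.212). With Ctrl-Fc the log2 difference of the second pair was 0.01.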

How the results depend on the processing

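The count of genes called between EphB2 + ephrin-B1 siRNA and EphB2 (133) was 127 with DESeq2 size factors and 116 with no filter. It was 2146 with the replicate block, 660 in DESeq2, 1819 in DESeq2 with the block, 205 with filterByExpr, 21 with an offset for transcript length, 2 in limma on log2(TPM + 1), 47 with the most abundant transcript, 889 at an unadjusted p under 0.05 with an absolute log2 fold change over 0.4, and 0 with only the groups compared (1662 at an unadjusted p under 0.05), where the block gave 1437. With the block and without replicate 1, 2 or 3 it was 1833, 969 and 333. Leaving out 1 library or 1 replicate number gave 0 to 117. The block settings without replicate 1 or 2 and with only the groups compared were chosen after seeing the data. The cause of these differences was not tested.

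For ephrin-B1 siRNA against Ctrl (391), the counts were 2931 with the block, 1008 in DESeq2, 2441 in DESeq2 with the block, 121 with the length offset, 0 in limma on log2(TPM + 1) (2135 unadjusted), 173 with the most abundant transcript, 88 with only the groups compared, 1073 at the unadjusted threshold, 2512, 1626 and 829 with the block without replicate 1, 2 or 3, and 0 to 290 with a library or number left out. For the interaction (0) they were 1 with the block, 2 in DESeq2, 25 in DESeq2 with the block, 1 with no filter, 12 and 6 with the block without replicate 2 or 3, and 0 to 0 with a library or number left out.

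The EFNB1 log2 fold change of -1.47 was -1.17 in limma on log2(TPM + 1) (adjusted p = 0.31) and -1.47 with only the groups compared in edgeR (adjusted p = 0.0793). With a library or number left out it lay between -1.57 and -1.38. With the replicate block it was -1.46. None of these results reversed. Over 221 single genes and 23 settings, 3880 of 5023 values kept their direction and side of the threshold, 530 lost a call, 507 gained 1 and 106 moved otherwise.

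Estimated counts carry no counting interval here, and small changes are missed without the block.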

Other observations

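Genes of RNA interference and double-stranded RNA sensing, 22 in the list, held no call without the block. With it 4 rose (DGCR8, IRF3, TLR3 and TNRC6A) and 2 fell (DROSHA and TNRC6B), and without replicate 3 the counts were 3 and 0, which left DGCR8, TLR3 and TNRC6A. Over all genes tested, 4.53% rose and 5.4% fell with the block, and 0.804% and 0.808% without replicate 3. DGCR8, the partner of DROSHA in microRNA processing, had 52.4, 57.3 and 50.2 CPM in EphB2 + ephrin-B1 siRNA, against 42.7, 39.2 and 45.3 CPM in EphB2 (edgeR blocked adjusted p = 0.013, 0.0435 without replicate 3). TNRC6A, which silences transcripts with Argonaute, had 219, 197 and 202 CPM in EphB2 + ephrin-B1 siRNA, against 172, 166 and 166 CPM in EphB2 (blocked adjusted p = 0.000481, 0.0368 without replicate 3). In both genes each EphB2 + ephrin-B1 siRNA library lay above each EphB2 library, as in 6.89% of all genes tested.

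Of 19 ERK feedback genes 5 fell and 1, DUSP6, rose with the block, and without replicate 3 the counts were 2 and 0. Shares over all genes tested were 5.4% lower and 4.53% higher with the block, and 0.808% and 0.804% without replicate 3. ETV4, an ETS factor induced by ERK signaling, had 34.1, 44.5 and 38.4 CPM in EphB2 + ephrin-B1 siRNA, against 49.6, 70.0 and 65.9 CPM in EphB2 (blocked adjusted p = 2.94e-05, 0.0107 without replicate 3). Of 30 receptor tyrosine kinases outside the Eph family, KIT, the stem cell factor receptor, had 43.1, 55.9 and 45.6 CPM in EphB2 + ephrin-B1 siRNA, against 33.0, 33.2 and 33.3 CPM in EphB2 (blocked adjusted p = 0.00109, 0.0319 without replicate 3). DDR1, a collagen receptor, averaged 49.3 CPM in EphB2 + ephrin-B1 siRNA, against 75.7 CPM in EphB2 (blocked adjusted p = 0.000246, 0.00527 without replicate 3).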
